A study of Mus musculus with 16 samples.

Results

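The 9 genes described here belong to the leukotriene and prostaglandin pathways: Cysltr1, Ltb4r1, Ptgdr2, Ptgir, Ptger2 and Ptger4 encode lipid receptors of the cell surface, Hpgds and Alox5ap encode proteins of lipid mediator synthesis, and Pparg encodes a nuclear receptor. They were chosen by name, as 9 of the 31053 genes of the lung and MLN matrices and of the 32285 genes of the lymph node matrix. Earlier results of these data were known when they and the gene lists below were chosen. Their counts past a threshold beside those of all genes are therefore only descriptions. Their unique molecular identifiers (UMIs) were counted by library, by hashtag and by IL-4eGFP gate. All mice were IL-4eGFP reporter (4get/C57BL/6) animals taken on day 10 after infection with the nematode Nippostrongylus brasiliensis (Nb). In the first run, CD4+IL-4eGFP+ cells of the lung and of the mesenteric lymph nodes (MLN) of 2 mice aged 13 weeks were loaded as 4 libraries, lung 1 and 2 and MLN 1 and 2. In the second run, CD4+ cells of the mediastinal lymph nodes (medLN), which drain the lung, and of the MLN of 2 mice aged 10 weeks were labelled with hashtag antibodies and pooled into 1 IL-4eGFP+ and 1 IL-4eGFP- library. The 4get reporter marks cells that transcribe the Il4 locus, and no samples of uninfected mice were analysed here. The perfused lungs still held some intravascular cells, and of the organs used only the lung was enzymatically digested. Since each gate was 1 library, gate and library cannot be told apart.

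Leukotrienes are made from arachidonic acid by 5-lipoxygenase, which needs the helper protein FLAP (Alox5ap), and prostaglandins are made from the same acid by the cyclooxygenases and then by enzymes specific to each prostaglandin. The mediators act on G protein-coupled receptors: those for cysteinyl leukotrienes and leukotriene B4 raise calcium and direct migration, whereas those for prostacyclin (Ptgir) and prostaglandin E2 (Ptger2, Ptger4) raise cyclic AMP. In type 2 immunity these lipids come largely from mast cells, macrophages, eosinophils and epithelial or endothelial cells, T helper 2 (Th2) cells are among the cells that sense them, and PPARg, a lipid-activated transcription factor, is known for its role in Th2 effector cells.

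After the filters, 1082 and 416 lung cells and 2462 and 754 MLN cells with a productive TCR alpha and beta chain remained, with 1992 to 2058 IL-4eGFP+ and 2091 to 2249 IL-4eGFP- cells per hashtag sample of the lymph nodes. The summed UMIs per sample ran from 2798232 in lung 2 to 14512767 in MLN 1, and the median UMIs per cell were 6910 and 5765.5 in lung, 4980 and 4971 in MLN, and 3165.5 to 3666.5 in the lymph node samples. T cell genes (Cd3e, Cd4 and others, 5 in all) summed to 3200 to 4520 CPM (UMIs per 1000000 UMIs of the sample) in every sample. The 5 Th2 genes Gata3, Il4, Il1rl1, Il5 and Il13 summed to 2142 and 1577 CPM in lung, 625 and 605 CPM in MLN, 394 to 521 CPM in IL-4eGFP+ and 31.5 to 45.2 CPM in IL-4eGFP- lymph node samples. Of 8 macrophage and monocyte markers, Lyz2, Cd14 and C1qa had 0 UMIs in the 1082 and 416 lung cells. For each, this allows a share of up to 0.277% and 0.721% of cells with a UMI. Tyrobp had 38 and 18 UMIs in lung 1 and lung 2, Fcer1g 20 and 12, Cd68 20 and 5, Adgre1 4 and 2, and Csf1r 1 and 0. Lyz2, an abundant macrophage transcript, was at 15.2 and 9.38 CPM in MLN. It was at 9.03 to 59.6 CPM in IL-4eGFP+ and at 1.78 to 17.3 CPM in IL-4eGFP- lymph node samples. Pairs of libraries shared 0 to 113 cell barcodes, the most between the IL-4eGFP+ and IL-4eGFP- libraries of 8074 and 8674 cells.

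The first comparison asks how the lung cells differed from the MLN cells of the same mice. Of the 8 members that passed the filter on low counts, 7 were past the threshold (adjusted p under 0.05, edgeR quasi-likelihood test with Benjamini-Hochberg adjustment), and all 7 were higher in lung: Cysltr1, Ltb4r1, Ptgir, Ptger2, Ptger4, Alox5ap and Pparg. Hpgds did not pass, and Ptgdr2 was not tested. Among all 10588 genes tested, 31.0% were past the threshold and 17.0% were past it and higher in lung. The median log2 fold change was 2.14 over the tested members and -0.01 over all genes tested. In sums over cells, fewer cells that express a gene and less RNA per cell cannot be told apart, so the share of cells with a UMI is given beside the sums, with the 95% exact binomial (Clopper-Pearson) interval where a single sample is described. These intervals cover counting error only.

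The sums of other T cell markers also lay apart between the organs, and their part in the members' values was not tested. The 4 follicular helper genes Cxcr5, Bcl6, Il21 and Tox2 summed to 38.6 and 30.0 CPM in lung and to 339.8 and 305 CPM in MLN. The 2 regulatory T cell genes Foxp3 and Ikzf2 summed to 18.1 and 29.3 CPM in lung and to 65.6 and 65.0 CPM in MLN. This difference came from Ikzf2, at 16.6 and 26.8 CPM in lung against 64.8 and 64.1 CPM in MLN. Foxp3 was low in both organs and went the other way, at 1.53 and 2.50 against 0.76 and 0.89 CPM. The 3 cell cycle genes Mki67, Top2a and Ccnb1 summed to 198 and 261 CPM in lung against 153 and 119 CPM in MLN, although Ccnb1 overlapped.

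**Figure D1:**
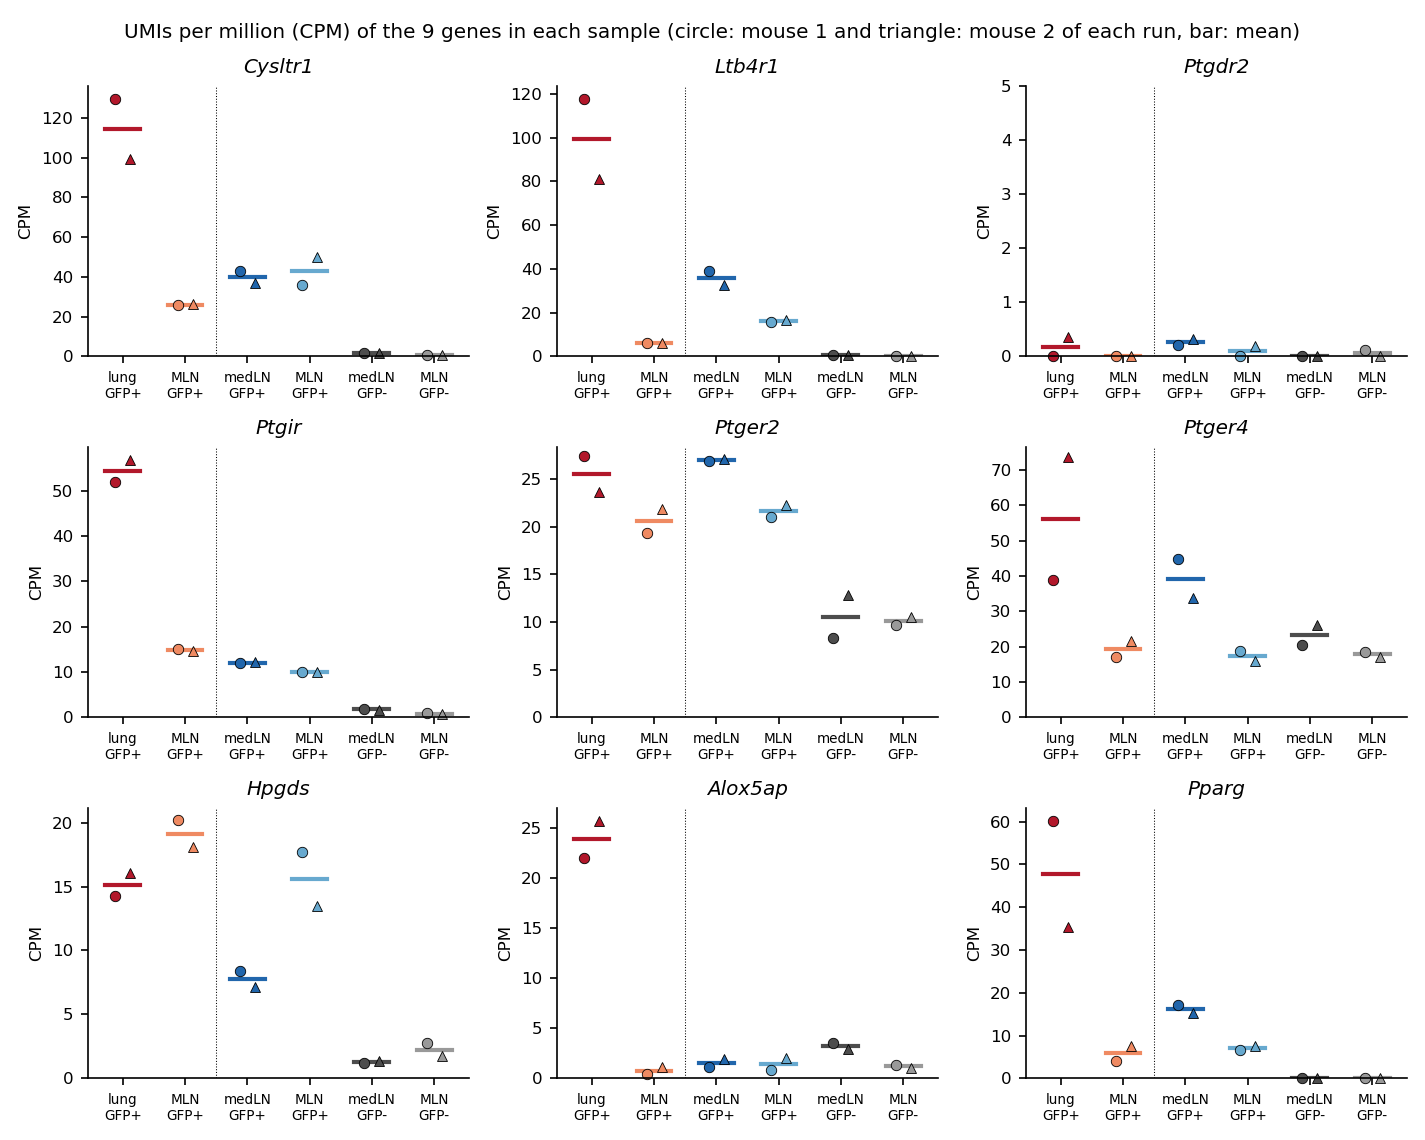
CPM of each of the 9 genes in the 12 samples, with the 2 mice of each group as a circle and a triangle and their mean as a bar. The dotted line separates the run of lung and MLN libraries from the run of pooled lymph node libraries, and GFP+ and GFP- are the IL-4eGFP gates. Both lung samples lie above both MLN samples for Cysltr1, Ltb4r1, Ptgir, Ptger2, Ptger4, Alox5ap and Pparg, and Ptgdr2 is near 0 throughout.

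Cysltr1 encodes the receptor for cysteinyl leukotrienes and lies on chromosome X, chrX:106574346-106603679, minus strand (GRCm38, GENCODE vM21). It was at 129.5 and 99.3 CPM in lung 1 and lung 2 and at 25.8 and 26.4 CPM in MLN 1 and MLN 2. Both lung samples were above both MLN samples, by a log2 fold change of 2.30 ± 0.17 (SE, edgeR adjusted p = 1.3e-05). A UMI of Cysltr1 was found in 43.4% (40.5 to 46.5) and 34.4% (29.8 to 39.2) of lung cells and in 6.74% and 7.03% of MLN cells, with up to 14 UMIs in a single lung cell. With each cell thinned to 2000 UMIs the shares were 19.2% and 16.4% in lung against 3.57% and 3.50% in MLN, and both lung shares were again above both MLN shares. Among cells with a UMI the mean was 2.34 and 1.94 UMIs in lung and 2.25 and 2.23 UMIs in MLN. The share of cells with a UMI thus differed between the organs, while the UMIs per such cell did not separate them.

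Ltb4r1 encodes BLT1, the high-affinity receptor for leukotriene B4, and lies at chr14:55765962-55768494, plus strand. Its level was 118 and 81.1 CPM in lung and 6.13 and 6.25 CPM in MLN. The lung samples were far above the MLN samples, which were close to each other, with a log2 fold change of 4.18 ± 0.24 (SE, edgeR adjusted p = 2.6e-06). Ltb4r1 UMIs were in 35.3% and 23.6% of lung cells and in 1.71% and 2.12% of MLN cells, and thinning left 17.7% and 10.8% against 0.664% and 0.404%. The gene for the low-affinity receptor, Ltb4r2, named here after its values were seen, stayed at or below 0.36 CPM in all 12 samples and was not tested.

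Among the prostaglandin receptors, Ptgdr2, which encodes the prostaglandin D2 receptor CRTH2 and lies at chr19:10937160-10942511, plus strand, was almost absent. It had 1 UMI in the 1498 lung cells, 0 UMIs in the 3216 MLN cells, 7 UMIs in the 8074 IL-4eGFP+ and 1 UMI in the 8674 IL-4eGFP- lymph node cells. Every one of these UMIs was in a different cell, so no group had more than 0.240% of cells with a UMI in any sample. A count of 0 in MLN 1 and MLN 2 allows a share of up to 0.122% and 0.398%. Ptgdr, which encodes the other prostaglandin D2 receptor, was listed at 0 CPM in all 12 samples. At this depth no difference of either prostaglandin D2 receptor between the groups was detectable.

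Ptgir, the receptor of prostacyclin (chr7:16906490-16910905, plus strand), was at 52.0 and 56.8 CPM in lung and at 15.2 and 14.7 CPM in MLN. The 2 mice were close within each organ and the organs did not overlap, with a log2 fold change of 1.98 ± 0.13 (SE, edgeR adjusted p = 6.0e-06). The share of cells with a UMI was 28.9% and 25.2% in lung and 7.43% and 7.16% in MLN.

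Ptger4 encodes the prostaglandin E2 receptor EP4 (chr15:5206661-5244187, minus strand). It was at 38.9 and 73.6 CPM in lung and at 17.0 and 21.7 CPM in MLN. Lung 2 was the highest sample by a wide margin, and lung 1 was also above both MLN samples, with a log2 fold change of 1.63 ± 0.24 (SE, edgeR adjusted p = 0.00088). Of the 7 genes that rose, only Ptger4, Ptgir and Alox5ap had more CPM in lung 2 than in lung 1.

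Ptger2, which encodes the other cyclic AMP-raising prostaglandin E2 receptor, EP2 (chr14:44988195-45003820, plus strand), differed little between the organs. It was at 27.4 and 23.6 CPM in lung and at 19.4 and 21.9 CPM in MLN. The groups did not overlap, and the log2 fold change of 0.50 ± 0.17 (SE) had an edgeR adjusted p of 0.048. The shares of cells with a UMI did overlap, at 14.8% and 10.8% in lung and 9.38% and 12.1% in MLN. The call was lost in 7 of 11 alternatives, with adjusted p-values from 0.0066 to 0.36 over all 11, and among these were the fits without lung 1 (0.36), without MLN 1 (0.30) and without MLN 2 (0.098).

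Hpgds, the hematopoietic prostaglandin D synthase (chr6:65117293-65144908, minus strand), was the tested member that was not higher in lung. It was at 14.2 and 16.1 CPM in lung and at 20.2 and 18.1 CPM in MLN, with a log2 fold change of -0.23 ± 0.17 (SE, edgeR adjusted p = 0.32). Its UMIs were in 9.52% and 8.89% of lung cells and in 10.5% and 9.81% of MLN cells. After thinning the lung shares were 2.53% and 3.43% and the MLN shares 4.44% and 3.50%.

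Alox5ap encodes FLAP, the protein that presents arachidonic acid to 5-lipoxygenase (chr5:149264767-149288153, plus strand). It was at 21.98 and 25.73 CPM in lung and at 0.41 and 1.12 CPM in MLN, from 187 and 72 UMIs against 6 and 5 UMIs. Lung was above MLN by a log2 fold change of 5.41 ± 0.34 (SE, edgeR adjusted p = 4.0e-06), and the ratio of the summed libraries was 39.6 (95% counting interval 21.7 to 80.2). Only 7.21% and 6.25% of lung cells had a UMI, and up to 27 UMIs were found in 1 cell. Alox5, the 5-lipoxygenase itself, was at 0.82 and 0.36 CPM in the same lung cells. Lung cells without a full TCR pair, which were left out here, had 291 and 508 CPM of Alox5ap.

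Genes of mast cells and basophils, which use FLAP, were also counted. The 7 markers Mcpt8, Cpa3, Fcer1a, Ms4a2, Mcpt4, Gata2 and Cd200r3 summed to 31.3 and 16.4 CPM in lung and to 6.06 and 3.57 CPM in MLN. Most of this sum was Cd200r3, at 24.0 and 10.4 CPM in lung and 5.93 and 3.13 CPM in MLN. Mcpt8, the basophil protease, had UMIs in 3 lung 1 cells and 1 lung 2 cell, and Mcpt4 had 0 UMIs. Only 1 cell of lung 1 and 1 cell of lung 2 had UMIs of 2 or more of the 7 markers. In lung cells with no UMI of any of the 7 markers, Alox5ap was at 17.7 and 19.6 CPM. Of the cells with an Alox5ap UMI, 59 of 78 and 21 of 26 had none of them. They held 133 of 187 and 51 of 72 Alox5ap UMIs. Without cells with a UMI of the 8 macrophage and monocyte markers, Alox5ap was at 19.0 and 22.1 CPM. This left 74 of 78 and 25 of 26 cells, with 157 of 187 and 60 of 72 Alox5ap UMIs. Whether the cells with such markers were T cells was not tested. The 8 macrophage and monocyte markers summed to 9.76 and 13.2 CPM in lung and to 27.8 and 40.2 CPM in MLN. Lyz2 was at 0 CPM in lung against 15.2 and 9.38 CPM in MLN, and C1qa at 0 against 2.14 and 8.93 CPM. Cd68 and Csf1r were also lower in lung. Tyrobp (4.47 and 6.43 against 2.89 and 9.38 CPM) and Fcer1g (2.35 and 4.29 against 2.96 and 6.48 CPM) overlapped between the organs. In lung, Tyrobp UMIs were in 3 and 2 cells and Fcer1g UMIs in 1 and 1.

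Pparg encodes PPARg (chr6:115360951-115490399, plus strand). Its level was 60.2 and 35.4 CPM in lung and 4.13 and 7.59 CPM in MLN. The organs did not overlap, with a log2 fold change of 3.40 ± 0.33 (SE, edgeR adjusted p = 6.6e-05), and lung 1 was well above lung 2. A UMI was found in 24.8% (22.2 to 27.5) and 14.2% (11.0 to 17.9) of lung cells and in 1.71% and 3.58% of MLN cells.

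Any of the 6 receptor genes had a UMI in 78.2% and 68.3% of lung cells and in 26.5% and 30.6% of MLN cells. After thinning the shares were 46.5% and 43.4% in lung against 12.8% and 14.3% in MLN, and 11.7% and 11.8% of thinned lung cells had 2 or more of the receptors against 1.29% and 0.942% of MLN cells. The lung cells thus carried several lipid receptor transcripts more often than the MLN cells, in both mice. The thinned shares of Cysltr1, Ltb4r1, Ptgir and Ptger4 were each higher in lung, and co-occurrence beyond these single shares was not tested.

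**Figure D2:**
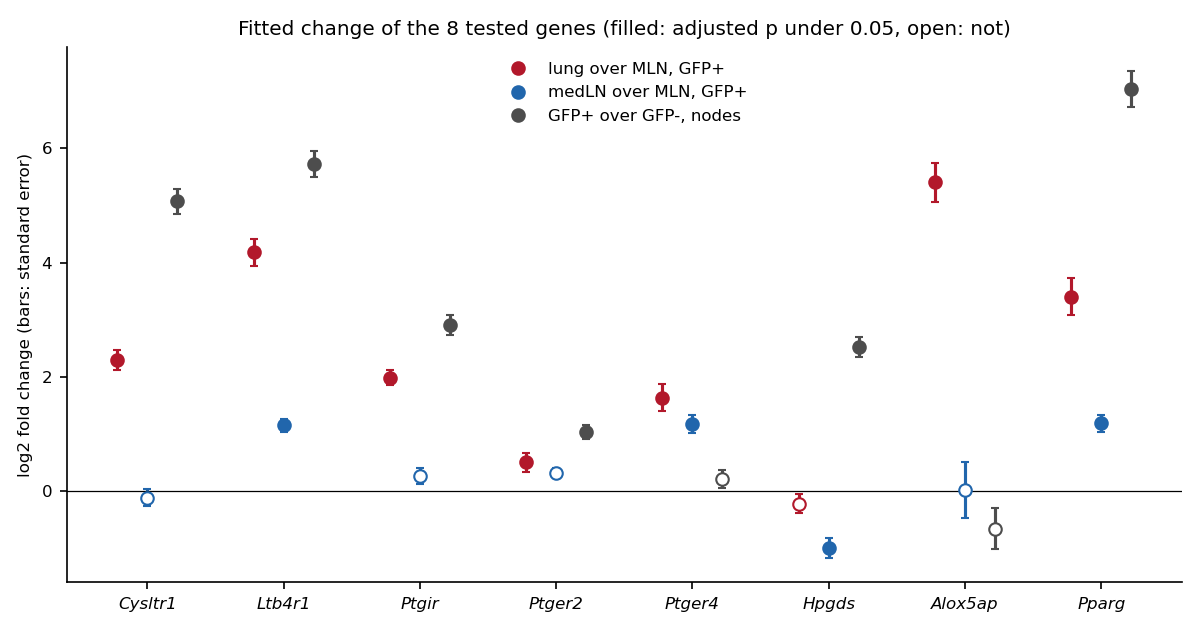
Log2 fold change of the 8 tested members in the lung over MLN, medLN over MLN and IL-4eGFP+ over IL-4eGFP- comparisons, with standard errors as bars and filled points where the edgeR adjusted p was under 0.05. Ltb4r1 and Pparg are above 0 and past the threshold in all 3, Hpgds is below 0 between medLN and MLN (-1.002) and above 0 between the gates (2.52), and Alox5ap is past the threshold only in lung over MLN.

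The second comparison sets the medLN against the MLN within the IL-4eGFP+ gate of the pooled run. Ltb4r1, Pparg and Ptger4 were higher in medLN and Hpgds was lower, which made 4 of 8 tested members past the threshold, while 1.28% of 11263 genes were past it and 0.675% were past it and higher in medLN. The median log2 fold change was 0.28 over the tested members and 0.00 over all genes. All 4 calls were lost without medLN 1, when 0 of 8 members were past the threshold (edgeR, 13 genes in all), with adjusted p-values of 0.054 for Ltb4r1, 0.087 for Ptger4, 0.13 for Pparg and 0.16 for Hpgds, and without medLN 2 only Ltb4r1 and Ptger4 were.

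Ltb4r1 was at 39.1 and 32.6 CPM in medLN and at 15.6 and 16.5 CPM in MLN, without overlap (log2 fold change 1.14 ± 0.12, SE, edgeR adjusted p = 0.0053). A UMI was found in 4.71% and 4.31% of medLN and 2.46% and 3.04% of MLN cells, and the mean in such cells was 3.84 and 3.56 UMIs in medLN and 2.94 and 2.89 UMIs in MLN. Both the share of cells with the transcript and the UMIs in such cells were higher in medLN.

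Pparg was at 17.0 and 15.4 CPM in medLN and at 6.52 and 7.61 CPM in MLN (log2 fold change 1.18 ± 0.15, SE, edgeR adjusted p = 0.013). Ptger4 was at 44.8 and 33.7 CPM in medLN and at 18.9 and 15.9 CPM in MLN (log2 fold change 1.17 ± 0.15, SE, edgeR adjusted p = 0.012). For both genes the 2 medLN samples were above the 2 MLN samples.

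Hpgds went the other way, at 8.41 and 7.16 CPM in medLN and at 17.7 and 13.4 CPM in MLN (log2 fold change -1.002 ± 0.179, SE, edgeR adjusted p = 0.038). Its UMIs were in 3.69% and 3.12% of medLN cells and in 7.38% and 6.39% of MLN cells. The call was lost without a filter on low counts (edgeR adjusted p = 0.097) and also without MLN 1 (0.11).

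Cysltr1 was at 42.9 and 36.6 CPM in medLN and at 35.6 and 49.8 CPM in MLN, so the organs overlapped (log2 fold change -0.12 ± 0.16, SE, edgeR adjusted p = 0.84). Ptgir was at 11.9 and 12.2 CPM in medLN and at 10.1 and 9.97 CPM in MLN (log2 fold change 0.25 ± 0.14, SE), and Ptger2 was at 26.9 and 27.1 against 21.0 and 22.3 CPM (0.31 ± 0.09, SE). Neither passed the threshold (edgeR adjusted p = 0.52 and 0.20), although their medLN samples were above their MLN samples. Alox5ap had 8 to 22 UMIs per sample.

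Markers of other cells and of T cell states were not equal in these samples, and their part in the differences was not tested. The follicular helper genes summed to 201 and 244 CPM in medLN and to 304 and 261 CPM in MLN. Cxcr5 and Tox2 were lower in medLN, whereas Bcl6 overlapped, at 48.1 and 59.2 against 67.6 and 53.3 CPM. Il21 was higher in medLN, at 24.9 and 23.9 against 20.0 and 22.2 CPM. The cell cycle genes summed to 635 and 622 CPM in medLN against 492 and 501 CPM in MLN. The regulatory T cell genes were at 50.9 and 72.1 against 85.2 and 82.6 CPM. The share of cells with macrophage, B cell or other such markers was 5.37% and 4.34% in MLN and 1.70% and 1.83% in medLN of the IL-4eGFP+ gate. Without these cells the same count of members, 4 of 8, was past the threshold, with 237 genes in all.

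Within the IL-4eGFP- gate, 0 of the 6 members that passed the filter differed between medLN and MLN by edgeR, against 0.178% of 10684 genes. At an unadjusted p under 0.05, Ptgir, Ptger4 and Alox5ap would be counted, with edgeR p-values of 0.046, 0.029 and 0.0037 before adjustment, and DESeq2 also called 0 members. With the mouse as a replicate block 65 genes in place of 19 were past the threshold, again without a member. Ptger4 was at 20.4 and 26.2 CPM in medLN and at 18.6 and 17.0 CPM in MLN, and Ptger2 was at 8.28 and 12.9 CPM in medLN and 9.66 and 10.5 CPM in MLN.

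The IL-4eGFP+ and IL-4eGFP- cells of the lymph nodes were compared over 4 samples each, with the organ but not the mouse in the fit. Each mouse gave a medLN and an MLN sample to each gate, so the 4 samples were not 4 independent animals. All samples of a gate came from the same pooled library, so the p-values of this comparison hold no spread between libraries. Cysltr1, Ltb4r1, Ptgir, Ptger2, Hpgds and Pparg were higher in IL-4eGFP+ cells, 6 of 8 tested members, while 62.8% of 11279 genes were past the threshold and 31.3% were past it and higher in IL-4eGFP+ cells. The tested members had a median log2 fold change of 2.71 and all genes of -0.02. Ptger4 and Alox5ap were not past the threshold. The gates also did not overlap in the sums of the T cell state lists given here, and the part of this in the members' values was not tested. Regulatory T cell genes were at 50.9 to 85.2 CPM in IL-4eGFP+ and at 115 to 184 CPM in IL-4eGFP- samples. Of these, Foxp3 did not overlap, at 4.21 to 11.4 against 48.7 to 76.1 CPM. Ikzf2 overlapped between the gates, at 46.7 to 73.8 against 61.0 to 108 CPM. Follicular helper genes were at 201 to 304 against 28.03 to 34.01 CPM, and cell cycle genes at 492 to 635 against 56.0 to 111 CPM. Naive T cell genes were at 804 to 995 against 1746 to 1908 CPM, although Tcf7 of that list overlapped between the gates.

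Cysltr1 was at 35.6, 49.8, 42.9 and 36.6 CPM in the IL-4eGFP+ MLN 1, MLN 2, medLN 1 and medLN 2 samples and at 0.87, 0.51, 1.42 and 1.46 CPM in the IL-4eGFP- samples in the same order. The gates were far apart (log2 fold change 5.08 ± 0.22, SE, edgeR adjusted p = 2.0e-09). A UMI was found in 6.98% to 11.5% of IL-4eGFP+ and in 0.138% to 0.526% of IL-4eGFP- cells. The median depth was 3165.5 to 3666.5 UMIs per cell in the IL-4eGFP+ and 3268 to 3371 UMIs in the IL-4eGFP- samples.

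Ltb4r1 was at 15.6, 16.5, 39.1 and 32.6 CPM in IL-4eGFP+ and at 0.37, 0, 0.52 and 0.80 CPM in IL-4eGFP- samples, in the same order of samples (log2 fold change 5.72 ± 0.23, SE, edgeR adjusted p = 1.0e-09). Pparg was at 6.52, 7.61, 17.0 and 15.4 CPM in IL-4eGFP+ samples, and 2 UMIs were found in all 8674 IL-4eGFP- cells. The ratio of the summed gates for Pparg was 181 with a 95% counting interval of 49.7 to 1495 (edgeR adjusted p = 2.4e-09). For both genes the lowest IL-4eGFP+ sample was above every IL-4eGFP- sample.

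Ptgir was at 10.1, 9.97, 11.9 and 12.2 CPM in IL-4eGFP+ and at 0.99, 0.63, 1.81 and 1.72 CPM in IL-4eGFP- samples (log2 fold change 2.91 ± 0.18, SE, edgeR adjusted p = 4.2e-08). Hpgds was at 17.7, 13.4, 8.41 and 7.16 CPM in IL-4eGFP+ and at 2.72, 1.78, 1.16 and 1.33 CPM in IL-4eGFP- samples (2.52 ± 0.18, SE, edgeR adjusted p = 1.4e-07). For Hpgds the MLN samples were above the medLN samples in both gates, and the test of its gate difference between the organs gave a log2 value of -0.09 ± 0.46 (SE, edgeR adjusted p = 0.99).

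Ptger2 differed less between the gates, at 21.0, 22.3, 26.9 and 27.1 CPM in IL-4eGFP+ and 9.66, 10.5, 8.28 and 12.9 CPM in IL-4eGFP- samples (log2 fold change 1.03 ± 0.12, SE, edgeR adjusted p = 1.0e-05). Every IL-4eGFP+ sample was above every IL-4eGFP- sample.

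Ptger4 was at 18.9, 15.9, 44.8 and 33.7 CPM in IL-4eGFP+ and at 18.6, 17.0, 20.4 and 26.2 CPM in IL-4eGFP- samples (log2 fold change 0.20 ± 0.16, SE, edgeR adjusted p = 0.30). The gates overlapped in MLN and not in medLN. Within medLN alone the log2 fold change was 0.58 (edgeR adjusted p = 0.018), and within MLN alone it was -0.25 (edgeR adjusted p = 0.15). The test of that difference gave a log2 value of 0.84 ± 0.23 (SE), with an edgeR p-value of 0.0044 before adjustment and 0.42 after, and thus did not pass. Of the 8 members tested for a gate difference between the organs 0 passed, by DESeq2 as well, against 0.156% of 11535 genes, and Ptger4 was the only one with an unadjusted p under 0.05.

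Alox5ap was at 0.87, 2.07, 1.16 and 1.90 CPM in IL-4eGFP+ and at 1.36, 1.01, 3.49 and 2.92 CPM in IL-4eGFP- samples, which overlapped (log2 fold change -0.66 ± 0.36, SE, edgeR adjusted p = 0.13). When cells with markers of B cells, macrophages or other cells were left out, its 8 to 27 UMIs per IL-4eGFP- sample fell to 1 to 3 UMIs and its 8 to 22 UMIs per IL-4eGFP+ sample to 7 to 16 UMIs. In medLN the counts left were 7 and 16 UMIs in IL-4eGFP+ and 1 and 3 UMIs in IL-4eGFP- samples. With all cells kept, at most 5 IL-4eGFP- cells per sample carried the transcript, with a mean of 2.67 to 5.40 UMIs each. A UMI was found in 0.402% to 0.644% of IL-4eGFP+ and 0.133% to 0.239% of IL-4eGFP- cells, and after thinning these shares overlapped. Also with all cells kept, Alox5ap passed within medLN alone, with a log2 fold change of -1.23 and an edgeR adjusted p of 0.018. Within MLN alone it was at 0.12 (edgeR adjusted p = 0.86). The test of that difference gave a log2 value of -1.35 ± 0.66 (SE, edgeR adjusted p = 0.75). Without the IL-4eGFP+ MLN 2 sample the gene passed the test, with an edgeR adjusted p of 0.011 and a log2 fold change of -1.09.

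Over all 12 samples the order of the groups was thus not the same for every member. Cysltr1 was highest in lung. Next came the IL-4eGFP+ medLN and MLN samples of the second run, which overlapped each other at 35.6 to 49.8 CPM. The MLN samples of the first run were below these, at 25.8 and 26.4 CPM. Ltb4r1 and Pparg fell in the order lung, medLN and MLN, and the 2 runs of MLN IL-4eGFP+ cells had 6.13 to 16.5 CPM of Ltb4r1 and 4.13 to 7.61 CPM of Pparg. Hpgds reached its highest level in MLN, where the 4 IL-4eGFP+ samples of both runs had 13.4 to 20.2 CPM, overlapping the lung samples. Levels were set side by side across the runs without a test, since the runs differed in mice, age and processing.

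Profiles over the 12 samples were compared by the Pearson correlation of log2(CPM + 1) after the mean of each run was subtracted, with the genes that averaged 10 CPM or more in both runs as candidates. Cysltr1, Ltb4r1, Ptger2 and Ptger4 were among these candidates, and the other members were not. The profile of Pparg was most like that of Ltb4r1 (r = 0.992), followed by AU020206, Slc25a4, Impa2 and F2r (0.981 to 0.984). Ltb4r1 was most like Impa2 (0.994), Ptgir like AU020206 (0.993) and, at rank 5, Gata3 (0.988), the main Th2 transcription factor. Cysltr1 was most like Bcl2a1b (0.994), Hpgds like Cd6 (0.974), Ptger2 like the DNA ligase gene Lig1 (0.980) and Ptger4 like Kmt2e (0.939). The samples share runs, organs and gates, so these values only describe which profiles are alike.

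The promoters of Ltb4r1 and Pparg, which were higher in lung, in medLN and in IL-4eGFP+ cells, and of Hpgds, which went the other way between medLN and MLN, are shown for comparison. RefSeq sequences on GRCm38.p6 (250 bases before to 50 bases after an annotated start) were matched for 7 of the 9 members, not for Cysltr1 and Alox5ap, and Pparg has 3 such starts. Each is given 5′ to 3′ on the strand of the gene, and capitals mark AGGTCA, the half-site that nuclear receptors such as PPARg and its partner RXR bind:
Ltb4r1, chr14:55765712-55766011, plus strand: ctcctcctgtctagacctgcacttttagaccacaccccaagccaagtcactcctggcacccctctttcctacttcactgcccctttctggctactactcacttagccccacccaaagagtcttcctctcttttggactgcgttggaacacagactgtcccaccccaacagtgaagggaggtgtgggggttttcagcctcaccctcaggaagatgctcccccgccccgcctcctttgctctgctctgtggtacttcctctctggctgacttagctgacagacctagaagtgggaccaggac
Pparg, start 1, chr6:115360894-115361193, plus strand: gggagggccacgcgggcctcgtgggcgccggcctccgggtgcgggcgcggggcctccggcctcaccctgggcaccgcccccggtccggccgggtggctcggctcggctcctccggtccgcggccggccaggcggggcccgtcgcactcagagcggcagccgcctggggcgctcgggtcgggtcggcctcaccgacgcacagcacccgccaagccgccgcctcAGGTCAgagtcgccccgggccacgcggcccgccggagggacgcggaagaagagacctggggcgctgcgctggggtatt
Pparg, start 2, chr6:115362099-115362398, plus strand: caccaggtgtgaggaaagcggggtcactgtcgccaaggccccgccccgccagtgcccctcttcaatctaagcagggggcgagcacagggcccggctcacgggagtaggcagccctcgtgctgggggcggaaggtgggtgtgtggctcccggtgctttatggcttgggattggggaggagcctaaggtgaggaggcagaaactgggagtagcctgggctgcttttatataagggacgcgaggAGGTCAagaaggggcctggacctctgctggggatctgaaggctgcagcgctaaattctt
Pparg, start 3, chr6:115421816-115422115, plus strand: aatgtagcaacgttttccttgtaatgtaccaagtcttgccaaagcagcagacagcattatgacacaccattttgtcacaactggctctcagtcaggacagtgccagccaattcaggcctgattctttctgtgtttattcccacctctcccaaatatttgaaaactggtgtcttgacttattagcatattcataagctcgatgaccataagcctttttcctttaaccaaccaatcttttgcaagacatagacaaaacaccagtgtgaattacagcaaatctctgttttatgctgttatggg
Hpgds, chr6:65144681-65144980, minus strand: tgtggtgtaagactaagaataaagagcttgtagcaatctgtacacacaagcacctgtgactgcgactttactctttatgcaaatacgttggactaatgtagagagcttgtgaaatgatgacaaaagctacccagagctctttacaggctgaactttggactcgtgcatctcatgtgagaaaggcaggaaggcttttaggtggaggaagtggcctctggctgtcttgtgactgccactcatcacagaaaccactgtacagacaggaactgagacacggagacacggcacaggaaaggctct

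The letters AGGTCA, searched on both strands, were found once in each of the first and second Pparg windows, 28 and 9 bases before the start, and in 16.3% of all 32851 promoter windows. The third Pparg window, Ltb4r1 and Hpgds held none. The GATA letters AGATAA or TGATAA, in 18.6% of all windows, were found only in Ptger2 among the 7 matched members, 200 bases before its start. No window of a matched member held the AP-1 letters TGANTCA (7.81% of all windows), the cyclic AMP response element TGACGTCA (1.79%), the ETS letters CCGGAAG (8.86%) or the STAT letters TTCNNNGAA (8.30%). The GC content ran from 37.7% for Ptger2 to 80.3% for the first Pparg start, with 56.3% for Ltb4r1 and 46.7% for Hpgds.

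Within a sample the members were not spread evenly over the cells. Cells were thinned to 2000 UMIs in the first run and to 1000 UMIs in the second, and the share with a UMI of a member was taken among cells with and without a UMI of a second gene. These shares describe cells of single libraries and were not tested.

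In lung, Cysltr1 was found in 25.3% and 29.1% of the 521 and 134 cells with a UMI of Il1rl1, which encodes the IL-33 receptor ST2, and in 13.3% and 10.2% of the cells without. Ltb4r1 followed Il1rl1 as well, with 24.0% and 14.9% against 11.7% and 8.76%, and so did Pparg, with 14.4% and 10.4% against 6.58% and 4.38%. Ptgir did not, at 10.9% and 10.4% against 9.87% and 10.9%.

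Among the 195 and 48 lung cells with a UMI of Il13, Ltb4r1 was found in 28.7% and 18.8%, against 15.2% and 9.72% of those without. Pparg gave 19.0% and 14.6% against 8.48% and 5.28%, whereas Cysltr1 gave 17.4% and 16.7% against 19.6% and 16.4%. Cells with Il13, a Th2 effector cytokine, thus more often had Ltb4r1 and Pparg UMIs than cells without it in both mice, which did not hold for Cysltr1. For Areg, which encodes the epidermal growth factor family ligand amphiregulin, Ltb4r1 was found in 24.9% and 21.1% of cells with against 12.3% and 8.43% of cells without a UMI.

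In MLN, cells with a UMI of Ccr9, the gut-homing chemokine receptor, stood out for Cysltr1. It was found in 20.6% and 9.38% of the 180 and 64 such cells against 2.20% and 2.95% of the others. In the IL-4eGFP+ MLN samples of the second run it was 13.3% and 13.3% of 90 and 120 cells against 1.69% and 2.78%. In lung the shares were 22.8% and 31.8% of 79 and 22 cells against 18.9% and 15.5%.

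Cells with a UMI of Cxcr5, the receptor that directs follicular helper T cells to B cell follicles, had no UMI of some members and held others. Cysltr1 was found in 0 of 539 and 0 of 146 such MLN cells, which allows a share of up to 0.557% and 2.05%, against 4.59% and 4.36% of the MLN cells without Cxcr5. In the second run Cysltr1 was found in 0 of 191 and 0 of 177 MLN and in 0 of 133 and 0 of 165 medLN cells with Cxcr5. Over all thinned IL-4eGFP+ cells it was in only 2.22% and 3.42% in MLN and 2.89% and 2.20% in medLN. In each of these samples of the second run, few cells with both could thus be found at this depth. Hpgds was instead found in 4.27% and 2.05% of MLN cells with and 4.49% and 3.85% of those without Cxcr5. Ptger2 was at 5.38% and 4.79% with and 3.47% and 5.03% without Cxcr5 in the same libraries.

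**Figure D3:**
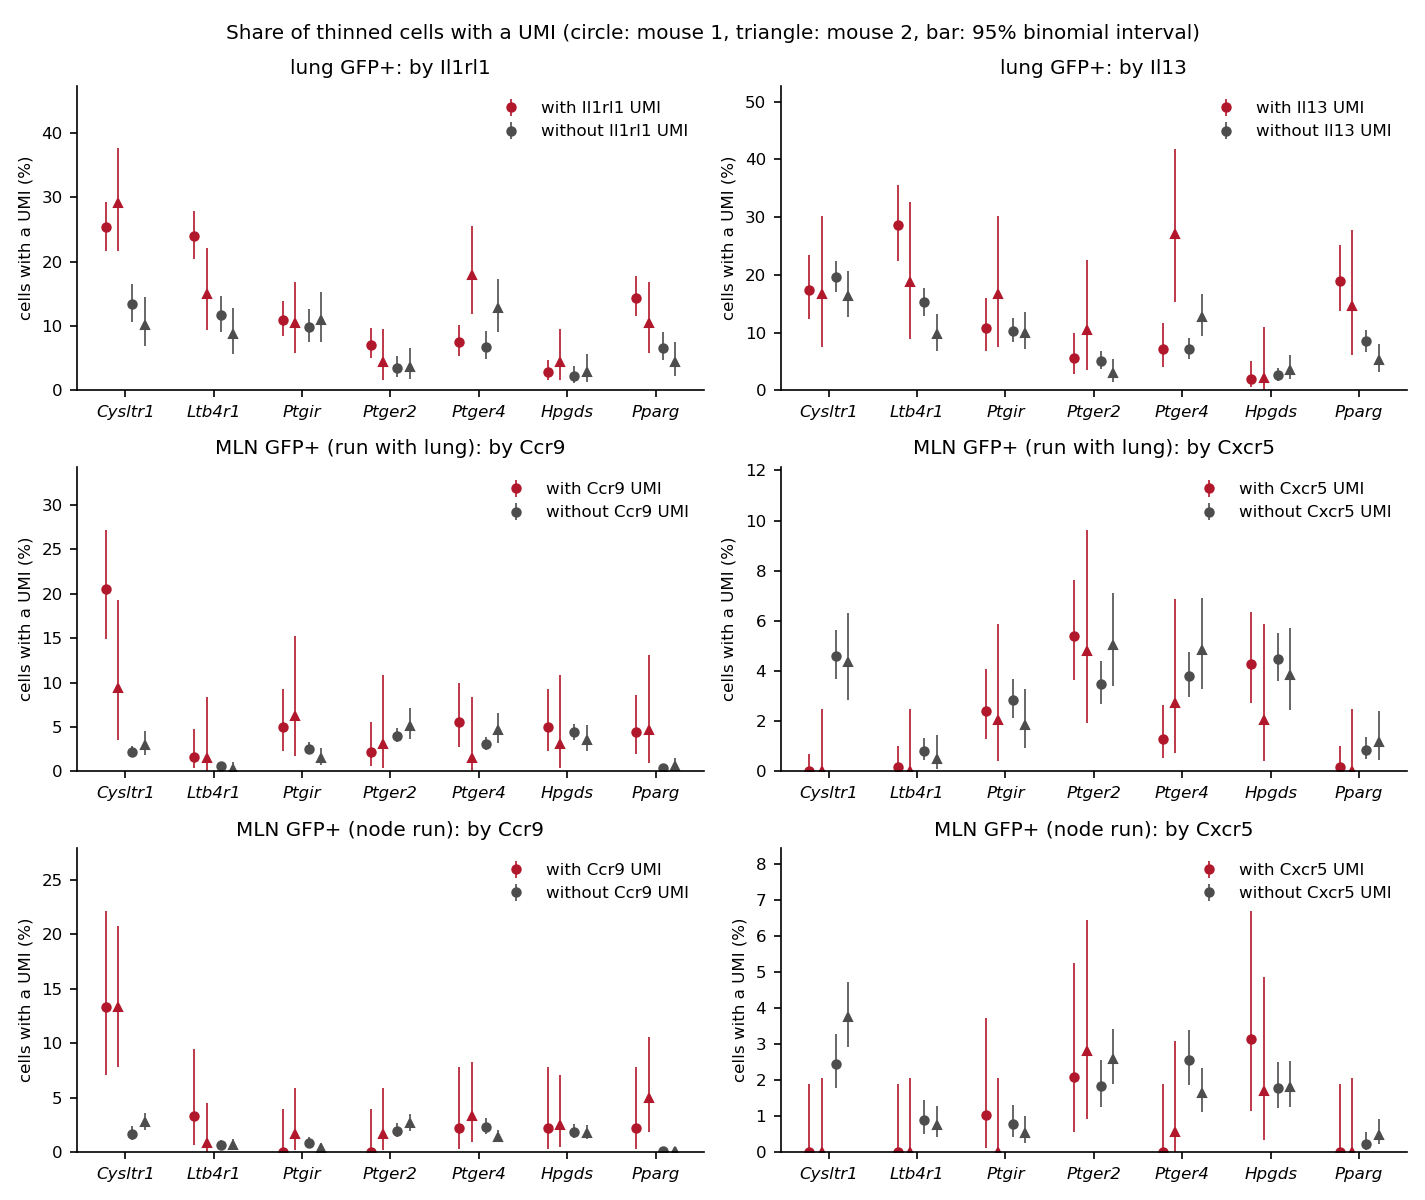
Share of thinned cells with a UMI of each member (percent) among cells with (red) and without (grey) a UMI of Il1rl1 or Il13 in lung and of Ccr9 or Cxcr5 in MLN, with 95% binomial intervals and the mice as circle and triangle. Cysltr1 is at 0% in MLN cells with Cxcr5 and at 9.38% to 20.6% in MLN cells with Ccr9, while Hpgds and Ptger2 are found on both sides of Cxcr5.

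Pairs of members were also followed in the thinned lung cells, without a test. Of thinned lung cells with a Ltb4r1 UMI, 17.5% and 15.9% had a Pparg UMI, against 8.87% and 5.22% of the cells without Ltb4r1, from 33 and 7 cells with both. Pparg was likewise found in 15.1% and 10.4% of cells with against 9.27% and 5.57% of cells without Cysltr1, and Ptgir in 15.3% and 15.9% of cells with against 9.33% and 10.2% of cells without Ltb4r1. For Ptgir and Cysltr1 the shares were 10.7% and 16.4% of cells with against 10.3% and 9.68% of cells without Cysltr1. Only some pairs are given here. In others the shares were lower in cells with the second gene in both mice, but from few cells with both. Pparg was found in 6.31% and 0% of cells with against 10.9% and 7.14% of cells without Ptgir, from 7 and 0 cells with both. Ptger2 was found in 4.88% and 1.49% of cells with against 5.33% and 4.40% of cells without Cysltr1, from 10 and 1 cells with both. In lung 1 these 2 shares were nearly equal.

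The other genes of the pathway were followed as 7 lists, whose counts stand beside the 31.0% of all genes past the threshold between lung and MLN (17.0% higher) and the 62.8% between the gates (31.3% higher). In lung against MLN and between the gates, the median log2 fold changes were 0.60 and -0.18 for other lipid receptors. These medians came from 3 tested genes, 0 of them past the threshold and higher in either comparison. The medians were -0.28 and -0.03 for other synthesis genes, -0.45 and 0.69 for breakdown and transport and 0.12 and -0.34 for PPAR partners. For PPARg targets they were 0.38 and 0.80, and for G proteins and kinases 0.34 and 0.17. Between medLN and MLN, Mgst2 was the only gene of the lists past the threshold, lower in medLN of the IL-4eGFP+ gate (log2 fold change -0.50 ± 0.09, SE, edgeR adjusted p = 0.036). Of 23 other synthesis genes, 11 were tested between lung and MLN, with 2 higher and 3 lower in lung. Among them Lta4h, which makes leukotriene B4, was at 69.7 and 74.7 CPM in lung and at 68.2 and 76.2 CPM in MLN (log2 fold change 0.14 ± 0.11, SE, edgeR adjusted p = 0.40), Mgst2, a glutathione transferase able to make leukotriene C4, was lower in lung (-2.09 ± 0.20, SE, edgeR adjusted p = 5.7e-05), and so was Cbr1, a carbonyl reductase that acts on prostaglandin E2 (-1.23 ± 0.13, SE, edgeR adjusted p = 9.4e-05). Between the gates 3 of 10 were higher and 4 lower in IL-4eGFP+ cells, with Mgst2 (-1.32 ± 0.10, SE), Lta4h (-0.51 ± 0.06, SE) and the aldose reductase gene Akr1b3 (-0.55 ± 0.05, SE) among the lower ones. Ptgs1 and Ptgs2, the cyclooxygenases, and Ltc4s, the leukotriene C4 synthase, were at 0 to 1.34 CPM in every sample and were not tested.

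Of 11 other lipid receptor genes 3 were tested in both comparisons, with 0 higher and 1 lower in each. Tbxa2r, the thromboxane receptor, was lower in lung, at 4.58 and 4.65 against 15.4 and 12.5 CPM (log2 fold change -1.47 ± 0.24, SE, edgeR adjusted p = 0.0017). It was also lower in IL-4eGFP+ cells, at 11.5 to 13.9 CPM against 71.2 to 76.7 CPM in IL-4eGFP- cells (-2.72 ± 0.07, SE, edgeR adjusted p = 1.0e-10). Tbxa2r thus ran opposite to the 6 members that were higher in IL-4eGFP+ cells. Of the 10 breakdown and transport genes, 9 were measured, 5 were tested between lung and MLN (2 higher, 2 lower) and 6 between the gates (5 higher, 1 lower). Abcc1, which exports leukotriene C4, was higher in both (0.64 ± 0.17 in lung and 0.79 ± 0.09 in IL-4eGFP+ cells, SE, edgeR adjusted p = 0.018 and 7.7e-06). Abcc4, which exports prostaglandins, was higher in IL-4eGFP+ cells (0.59 ± 0.10, SE, edgeR adjusted p = 0.00018) and not past the threshold in lung (-0.45 ± 0.24, SE, edgeR adjusted p = 0.19). Ggt5, which converts leukotriene C4 to D4, was lower in both (-1.995 ± 0.418 and -3.02 ± 0.14, SE, edgeR adjusted p = 0.0061 and 2.8e-09). Hpgd, the prostaglandin-degrading enzyme, stayed at or below 3.69 CPM.

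Of the 14 genes listed as PPARg targets, 7 were tested between lung and MLN, with 3 higher and 2 lower, and 8 between the gates, with 4 higher and 2 lower, where 31.0% and 62.8% of all genes were called. Fabp5, a fatty acid binding protein, was higher in both (log2 fold change 1.49 ± 0.17 and 1.48 ± 0.09, SE, edgeR adjusted p = 0.00017 and 2.6e-08), as was Cpt1a, which brings fatty acids into mitochondria (0.64 ± 0.14 and 0.84 ± 0.09, SE). Plin2, a lipid droplet protein, was at 66.1 and 31.4 CPM in lung against 13.8 and 13.8 CPM in MLN (2.05 ± 0.31, SE, edgeR adjusted p = 0.0011). Scd2 and the cholesterol exporter Abcg1 were lower in lung. Among the 9 PPAR and RXR partners, 1 of 6 tested was higher in lung, the corepressor Ncor1 (0.46 ± 0.11, SE), and 1 was higher and 5 lower in IL-4eGFP+ cells, among them Rxrb (-0.46 ± 0.06, SE).

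Of the 15 G protein, adenylyl cyclase and protein kinase A genes between receptors and CREB, 3 were higher and 2 lower in lung, and 9 were higher and 3 lower in IL-4eGFP+ cells, beside 31.0% and 62.8% of all genes called. Gna15, which couples receptors to phospholipase C, was at 109.8 and 105 CPM in lung against 13.4 and 17.9 CPM in MLN (2.97 ± 0.16, SE, edgeR adjusted p = 1.9e-06), and was higher in IL-4eGFP+ cells as well (2.40 ± 0.17, SE).

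All 14 genes listed as inducible by cyclic AMP were tested, and 13 were higher and 1 lower in lung, with a median log2 fold change of 4.73 against -0.01 over all genes. Fosl2, an AP-1 subunit (7.01 ± 0.38, SE), Areg (7.06 ± 0.67, SE), Rgs2, a regulator of G protein signaling (5.75 ± 0.18, SE), the kinase gene Sik1 (5.23 ± 0.26, SE) and the nuclear receptors Nr4a2 (5.21 ± 0.24, SE) and Nr4a1 (4.96 ± 0.20, SE) had edgeR adjusted p-values of 5.5e-05 or less. Between the gates the same list gave 3 higher, 4 lower and 7 not past the threshold, with a median of -0.02. Most of these genes are immediate early genes that many stimuli induce, T cell receptor signals and tissue dissociation among them. The digestion of the lung alone cannot be told apart from the organ in these values.

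**Figure D4:**
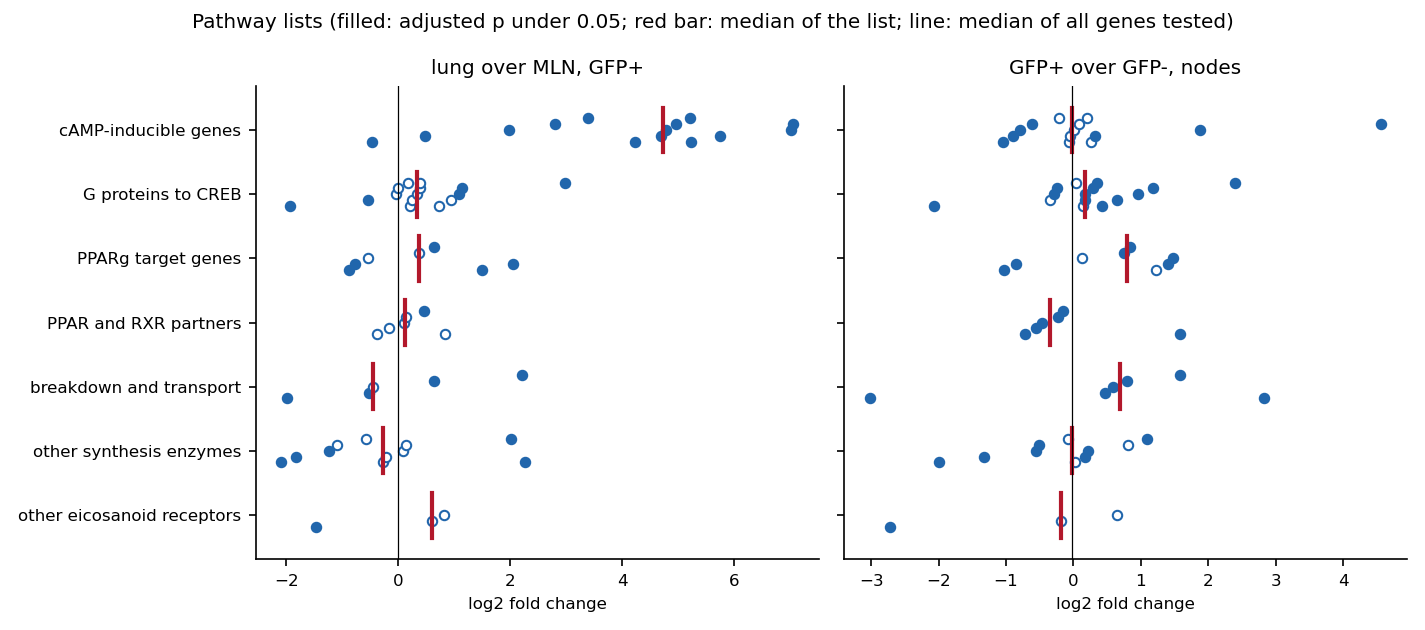
Log2 fold changes of the genes in 7 lists around the lipid pathways for lung over MLN (left) and IL-4eGFP+ over IL-4eGFP- (right), each point a tested gene, filled where the edgeR adjusted p was under 0.05, with the list median as a red bar and the median of all genes tested as a line. The list of cyclic AMP-inducible genes has a median of 4.73 in the left panel and -0.02 in the right one. The medians of the other lists run from -0.45 to 0.60 on the left and from -0.34 to 0.80 on the right. The 0.60 is the median of 3 tested receptor genes, 0 of them past the threshold and higher in lung.

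Several members lie in overlapping loci, and strand use in the counting is not given in the sources used here. Genes on the opposite strand reach over exons of several members. These are Gm5127 (Cysltr1), Ccdc86 (Ptgdr2), Ttc33 and Gm15937 (Ptger4), Gm17173 and Gm49364 (Ptger2), Gm19719 (Alox5ap) and Gm44079 (Pparg). No other gene overlaps Ltb4r1 or Ptgir.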

How the data were processed

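CD4+ T cells were profiled by droplet single-cell RNA sequencing. The deposited matrices hold counts of UMIs per gene and cell, made by the authors with Cell Ranger (versions 2.1.1, 3.0.1 and 6.1.2 in the submitters' processing notes) on mm10. Cells were kept above 500 genes and 500 UMIs, at a novelty over 0.8 and a mitochondrial share below 7%, in the first run with a productive TCR alpha and beta chain. Hashtags were called with HTODemux (Seurat 5.3.0), which also dropped multiplets. In the first run no doublet caller was run. UMIs were summed per sample and tested with edgeR 4.0.16 (R 4.3.3) in a quasi-likelihood test after filterByExpr and TMM, and p-values were adjusted by Benjamini-Hochberg across every tested gene. T cell receptor genes were left out. DESeq2 1.42.0 was an alternative. Shares used numpy 2.4.6, pandas 2.3.3 and scipy 1.17.1, with cells thinned to 2000 or 1000 UMIs. The scripts were tested on simulated data.

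Same-numbered samples came from the same mouse. The correlation of their deviations was 0.0664 between lung and MLN, 0.273 and 0.113 between the lymph nodes of the IL-4eGFP+ and IL-4eGFP- gates, and 0.189 and 0.169 between the gates in medLN and MLN. With 2 mice per group, p-values measure the spread between these samples. All members were named in every comparison. List genes were named if past the threshold in lung against MLN or between the gates at a mean of at least 10 CPM, up to 6 per list by size, besides Alox5, Lta4h, Ltc4s, Ptgs1, Ptgs2, Hpgd, Ptgdr, Abcc1 and Abcc4. The members and lists were chosen with earlier results of these data known.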

Additional observations from a re-analysis of the deposited data

Results flagged for a closer look

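In the lung libraries, cells without a full TCR pair, which entered none of the main comparisons, held UMIs of leukotriene and prostaglandin synthesis genes. Alox5ap had 741 UMIs in 523 such cells of lung 1 and 444 UMIs in 208 such cells of lung 2, against 187 and 72 UMIs in the 1082 and 416 cells with a TCR pair. Alox5, the 5-lipoxygenase gene, had 79 and 37 UMIs against 7 and 1. Ptgs2, the inducible cyclooxygenase gene, had 654 and 99 UMIs against 7 and 0. In MLN cells without a TCR pair, Alox5ap had 31 and 22 UMIs, Alox5 had 2 and 0 and Ptgs2 had 0 and 1.

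The Ptgdr2 level of 0.124 CPM in the IL-4eGFP- MLN 1 sample stood apart from the other 3 IL-4eGFP- samples, which were at 0. It came from 1 UMI, and any single UMI beside samples at 0 stands apart in this way. It was 1 of 18 groups of 4 samples looked at.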

How the results depend on the processing

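Over 477 alternatives of single members, 444 kept the direction and the side of the threshold, 15 lost the call, 3 gained one and 15 changed sign. With the mouse as a replicate block the counts of members past the threshold stayed at 7, 4, 0, 6 and 0, but the count of all genes rose from 19 to 65 between the IL-4eGFP- lymph nodes and from 18 to 81 for the gate difference between the organs. For lung against MLN, DESeq2 called 1833 genes in place of 3284, and leaving out 1 sample gave 1907 to 3678. For medLN against MLN in IL-4eGFP+ cells, 144 genes became 47 without a filter and 237 without cells with markers of another cell type, and leaving out 1 sample gave 0 to 4 members and 13 to 191 genes. In IL-4eGFP- cells, 19 genes became 2 without a filter, 11 without cells with such markers, 5 with all 8 samples in 1 fit and 98 to 194 with 1 sample left out. For the gate difference between the organs, 18 genes became 37 with DESeq2, 68 without a filter and 4 to 13 with 1 sample left out.

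Changes of sign were all in values that had not passed the test. Between medLN and MLN of the IL-4eGFP+ gate these were Alox5ap (-0.52 with hashtags called by margin, -0.46 to 0.80 with 1 sample left out) and Cysltr1 (-0.35 to 0.16). In the IL-4eGFP- gate it was Ptger2 (-0.0017 with the replicate block, -0.014 without cells with markers of another type, -0.34 to 0.29 with 1 sample left out). Between the gates, Alox5ap was at 0.12 and Ptger4 at -0.25 in MLN alone. In the gate difference between the organs, Ltb4r1 was at 0.76 without cells with such markers and at -4.52 to 0.38 with 1 sample left out, and Hpgds at -0.42 to 0.15. The causes were not tested. Where 1 of 2 samples was left out, the lone sample was assumed to vary like the others. Counts were low for Ptgdr2 (0 to 3 UMIs per sample), for Ltb4r1 (0 to 6) and Pparg (0 to 1) in IL-4eGFP- samples, and for Alox5ap in all samples but lung (5 to 27), so small differences there were not detectable.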
